A study of Mus musculus with 4 samples.

Results

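The amino acid transporter genes described here were Slc3a2, Slc7a5, Slc7a6, Slc7a1, Slc1a5, Slc38a1, Slc38a2 and Slc43a1. These 8 genes were taken by name, not by a cut-off on a measured value, from the 37583 features listed in the deposited tables. Earlier results of these data were known when the genes were chosen. All 8 were found in all 4 tables, and all 8 passed the filter on low reads and were tested. They were counted in CD4+Foxp3+ regulatory T cells (Tregs), the T cells that restrain other immune cells, isolated on a cell sorter from C57BL/6 mice aged 8 weeks. The study set WT mice against Csnk2b-deficient mice, whose genotype is given as Csnk2b-/-. Csnk2b encodes the regulatory beta subunit of the protein kinase CK2. There were 4 libraries, 1 for each genotype in the spleen and 1 for each genotype in the tracheal lymph nodes. The sources used here do not say how Csnk2b was deleted, in which cells, or whether a library came from 1 animal or from several.

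Mammalian cells take up amino acids through families of solute carriers that differ in the amino acids they accept and in the ions or exchanged amino acids that drive transport. Slc3a2 is the heavy chain CD98hc, which has no transport activity of its own and carries light chains such as Slc7a5 (LAT1) and Slc7a6 (y+LAT2) to the plasma membrane. Slc1a5 (ASCT2), Slc38a1 (SNAT1) and Slc38a2 (SNAT2) carry glutamine and other small neutral amino acids, Slc7a1 (CAT1) carries arginine and lysine, and Slc43a1 (LAT3) carries large neutral amino acids such as leucine. In T cells, uptake of leucine and glutamine feeds the growth kinase complex mTORC1, and transcripts of several of these transporters are known to be induced by activation.

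Loss of Csnk2b was accompanied by no change past the test threshold in any of the 8 genes. Slc7a6, the light chain that exchanges cationic for neutral amino acids, was 3.46-fold higher in the Csnk2b-deficient than in the WT lymph node library, and 1.15-fold higher in the spleen pair. Slc7a5, the other light chain, had the fewest reads of the 8 genes when summed over the libraries, and was lower in the Csnk2b-deficient library of both tissues. Its uniquely placed exon reads all crossed a junction between exons, unlike those of the other genes. Its read count therefore cannot be read against theirs. Slc1a5 and Slc3a2 were lower in the lymph node than in the spleen, past the threshold. These were 2 of the 8 genes, near the 22.2% of all genes tested that were called lower. The Slc3a2 call held in 7 of 10 alternative fits. Together the 8 genes stood at 875, 860, 750 and 741 CPM (exon reads scaled to a common library size with TMM factors) in WT spleen, Csnk2b-deficient spleen, WT lymph node and Csnk2b-deficient lymph node.

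The libraries held 6750695 exon reads in WT spleen, 4877882 in Csnk2b-deficient spleen, 4737814 in WT lymph node and 5506113 in Csnk2b-deficient lymph node, and values below follow this order unless stated otherwise. Genes with a read numbered 15515, 14962, 12157 and 14335, fewest in WT lymph node. Of the exon reads, 85.7%, 86.2%, 78.3% and 78.9% were uniquely placed. Csnk2b itself had 82.3, 25.6, 163 and 62.0 CPM, lower in the Csnk2b-deficient library of both tissues, with a log2 genotype coefficient of -1.54 ± 0.26 (SE) and an adjusted p of 0.0658 by edgeR. All 7 Treg markers had reads in all 4 libraries, and Foxp3 stood at 811, 374, 571 and 123 CPM. The summed level of 6 myeloid markers was 12.9, 10.2, 47.7 and 309 CPM. Lyz2 alone gave 283 of the 309 CPM in Csnk2b-deficient lymph node, and 3 of the 6 markers were at 0 reads in WT lymph node. In bulk samples such as these, fewer cells of a type and less RNA per cell cannot be told apart. RNA and library kits also differed: Trizol and TruSeq served samples 1 and 2, and RNeasy micro, SMARTer and Nextera XT served samples 3 and 4, per the labels' protocols. If those numbers follow the order of listing, the kits divide exactly as the tissues do, and kit and tissue cannot be told apart.

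**Figure D1:**
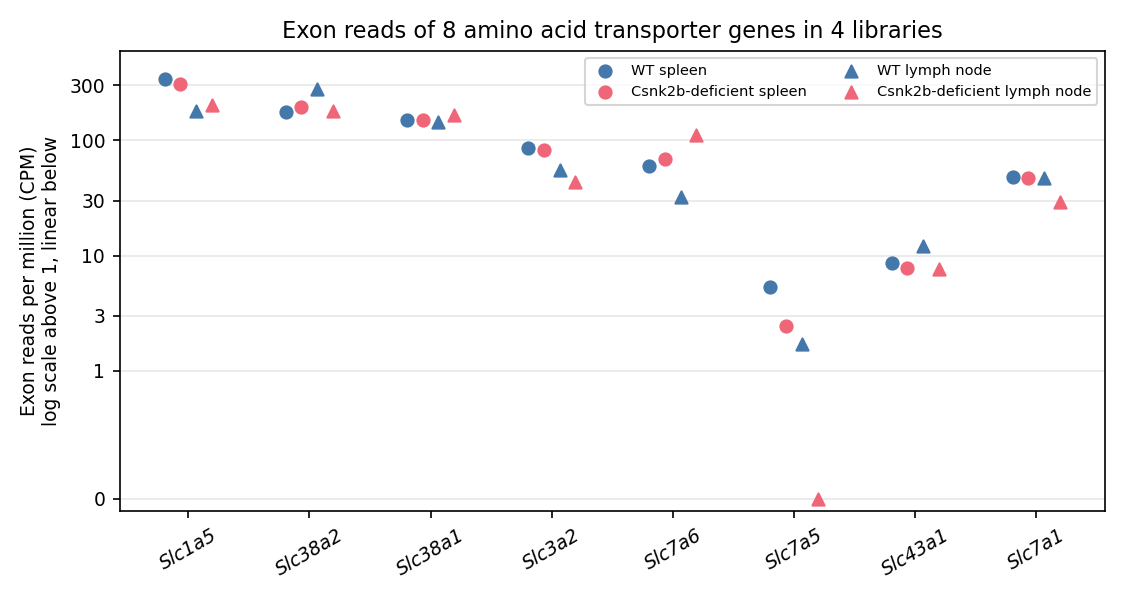
Exon reads as CPM (log scale above 1 and linear below) of the 8 genes, with 1 point per library, circles for spleen and triangles for lymph node, blue for WT and red for Csnk2b-deficient. Slc7a6 is spread from 32.0 CPM in WT lymph node to 111 CPM in Csnk2b-deficient lymph node, Slc38a1 lies between 143 and 166 CPM in all 4 libraries, and Slc7a5 reaches 0 in Csnk2b-deficient lymph node.

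The heavy chain gene Slc3a2 lies on chromosome 19 at 8781372 to 8797859 (mm9), with 2958 exon bases. It had 683, 476, 226 and 198 exon reads, or 86.6, 82.3, 55.2 and 43.4 CPM. Both spleen libraries stood above both lymph node libraries, and within each tissue the WT library was the higher one. The spleen pair differed by 1.05-fold with a 95% exact binomial interval of the count ratio of 0.935 to 1.19 (WT over Csnk2b-deficient), which holds 1. The lymph node pair differed by 1.27-fold (1.05 to 1.55) in the same direction. These intervals cover counting error only, since there was 1 library per genotype and tissue. Over both tissues the genotype coefficient, which compares Csnk2b-deficient with WT libraries after a term for tissue, was -0.21 ± 0.27 on the log2 scale (SE, 2 libraries against 2), with an adjusted p of 0.934 by edgeR's quasi-likelihood test.

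Slc7a6, on chromosome 8 at 108692775 to 108722604 with 3730 exon bases, had 473, 399, 131 and 505 exon reads. On the CPM scale the libraries stood at 60.0, 69.0, 32.0 and 111. The Csnk2b-deficient library was the higher in both tissues, and the WT lymph node library was the lowest of the 4 and the Csnk2b-deficient lymph node library the highest. The ratio of Csnk2b-deficient to WT was 1.15 in the spleen (1.00 to 1.32) and 3.46 in the lymph node (2.85 to 4.22). Its genotype coefficient of 0.98 ± 0.37 had an unadjusted p of 0.0243 by edgeR's quasi-likelihood test, and the adjusted p of 0.890 did not pass 0.05. In the lymph node pair 945 of the 11113 genes tested (8.50%) had a ratio at least as high as that of Slc7a6. The summed myeloid markers were also higher in the Csnk2b-deficient lymph node library (309 against 47.7 CPM), and their part in the Slc7a6 value was not tested. The WT lymph node library also had the fewest genes with a read (12157, against 14335 in Csnk2b-deficient lymph node), and the part of this was not tested either.

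Reads mapped to the Slc7a6 gene but outside its exons followed the exon reads in the lymph node, with 16 in WT and 173 in Csnk2b-deficient, and stood at 169 and 178 in the spleen libraries. The adjacent gene Slc7a6os, 1733 bases away and whose yeast counterpart takes part in the nuclear import of RNA polymerase, had 53.3, 47.2, 5.38 and 5.26 CPM. Its 2 lymph node libraries were nearly equal, with a genotype coefficient of -0.12 ± 0.40 (adjusted p = 0.976, edgeR), while both lay far below the spleen libraries (tissue coefficient -3.23 ± 0.42, adjusted p = 0.000106, edgeR). On junction reads alone the genotype coefficient of Slc7a6 was 0.57 ± 0.59 (adjusted p = 0.999, edgeR), from 53, 31, 11 and 41 uniquely placed reads, again low in WT lymph node.

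Slc7a5 lies on chromosome 8 at 124405052 to 124431594, with 3515 exon bases. It had 42, 14, 7 and 0 exon reads, or 5.33, 2.42, 1.71 and 0 CPM. Its libraries fell in the same order in each tissue, with WT above Csnk2b-deficient, and the groups did overlap, since WT lymph node lay below Csnk2b-deficient spleen. In the spleen it was 2.20-fold lower in the Csnk2b-deficient library (1.18 to 4.36). In the lymph node 7 reads stood against 0, at least 2.60-fold lower when the empty library was set to a floor of 3 reads, or 0.658 CPM, and at least 1.61-fold lower by the exact binomial interval. The genotype coefficient was -2.18 ± 1.58 with an adjusted p of 0.890 (edgeR), so its error was nearly as large as the value, and the coefficient of a gene with an empty library depends on the prior count. With the tissue term dropped it was -1.51. It was then -0.43 without the WT spleen library, -0.52 without the Csnk2b-deficient lymph node library and -7.30 without the Csnk2b-deficient spleen library. Leaving a library out left 1 genotype with a single tissue, so part of the tissue difference was mixed into the coefficient.

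The uniquely placed reads behind these Slc7a5 values were of 1 kind. All 55 of them, 37, 13, 5 and 0 by library, crossed a junction between exons, and none lay within an exon. The rest of its 63 exon reads (42, 14, 7 and 0 by library) were not uniquely placed and were not counted as junction reads. The gene lies inside the listed span of Gm20388, which covers 4434882 bases of chromosome 8 (122434741 to 126869622) and was credited with 28014, 20127, 12400 and 14501 gene reads outside its own exons. In the GENCODE annotation of GRCm38, Gm20388 is on the plus strand and Slc7a5 on the minus strand. Of 10234 genes with at least 50 uniquely placed exon reads over the libraries, 190 (1.86%) had junction reads only among those reads. All 190 overlapped another listed span, and 169 of them (89.0%) lay wholly inside one, against 0 of the other 10044 genes. All 35 genes at that minimum inside Gm20388 had junction reads only among their uniquely placed exon reads. The level of Slc7a5 was therefore measured on a different basis from that of the other 7 transporters, none of which overlaps another listed feature, and its low CPM cannot be read against theirs.

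All uniquely placed exon reads of Slc7a5 crossed a junction. The sequences that such a read must span are shown for the first 3 of the 9 junctions of its longest protein-coding transcript in GENCODE. They were read on the minus strand of GRCm38 chromosome 8, 5′ to 3′, with the last 20 bases of the upstream exon in lower case and the first 20 bases of the downstream exon in capitals. The upstream exons end at 121907066, 121896428 and 121888322, and the downstream exons begin at 121896565, 121888427 and 121887541. The tables do not say which junctions the 55 reads crossed.
Slc7a5 exon 1 to exon 2: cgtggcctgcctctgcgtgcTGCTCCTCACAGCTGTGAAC
Slc7a5 exon 2 to exon 3: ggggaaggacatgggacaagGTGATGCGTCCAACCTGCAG
Slc7a5 exon 3 to exon 4: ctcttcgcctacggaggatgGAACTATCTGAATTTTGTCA

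On junction reads alone the heavy chain and its light chains were set side by side. Each has 9 junctions in its longest protein-coding transcript in GENCODE (GRCm38). The mm9 features on which the reads were counted list 11 exons for Slc3a2, 13 for Slc7a5 and 10 for Slc7a6, so the genes need not be alike in the junctions counted. Slc7a5 had 37, 13, 5 and 0 uniquely placed junction reads, Slc7a6 had 53, 31, 11 and 41, and Slc3a2 had 160, 108, 51 and 30. Slc7a5 thus stood at 23.1%, 12.0%, 9.80% and 0% of the Slc3a2 junction reads, below Slc7a6 in all 4 libraries. On exon reads per kilobase, uniquely placed reads within an exon add to Slc3a2 and none did to Slc7a5. On that scale the same ratio was 0.0518, 0.0248, 0.0261 and 0. The ratio of Slc7a6 to Slc3a2 per kilobase was 0.549, 0.665, 0.460 and 2.02, above 1 in Csnk2b-deficient lymph node and below 1 in the other 3 libraries. The junction reads of that library were 41 for Slc7a6 and 30 for Slc3a2. Scaled for depth (CPM per junction), Slc7a5 stood at 0.521, 0.250, 0.136 and 0 and Slc7a1 at 0.307, 0.418, 0.0611 and 0.0914.

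**Figure D2:**
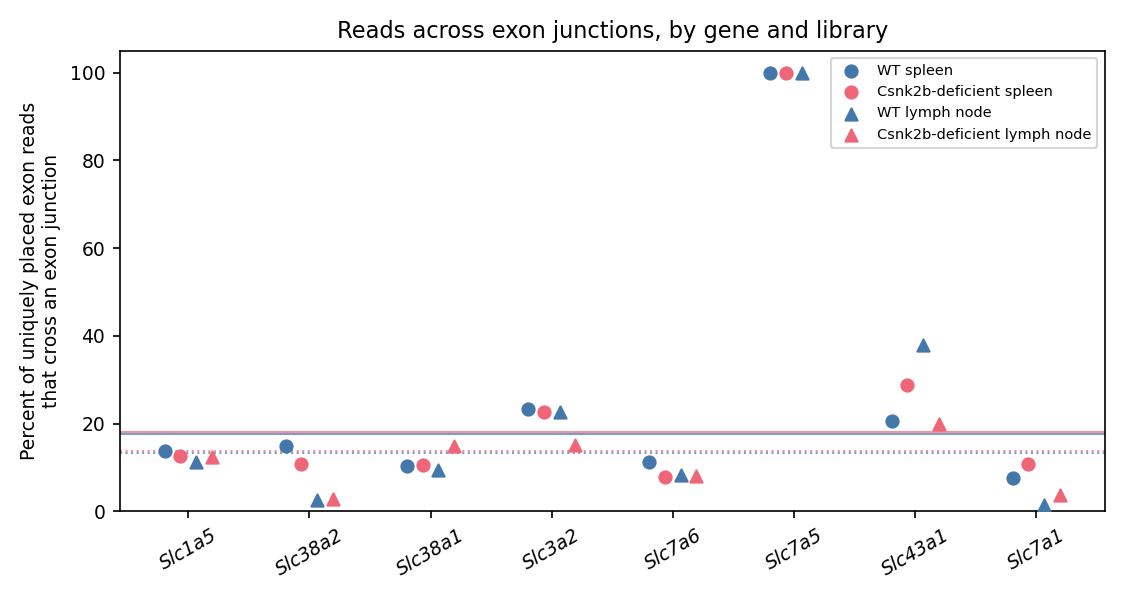
Percent of uniquely placed exon reads that cross a junction between exons, for each gene and library, with symbols as in the plot of CPM. Horizontal lines give the median gene in each library (solid for spleen, dotted for lymph node, 13.3% to 18.0%). Slc7a5 stands at 100% in the 3 libraries where it had reads, and Slc38a2 and Slc7a1 lie under 4% in both lymph node libraries.

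The cationic transporter Slc7a1, on chromosome 5 at 149138986 to 149211480 with 7527 exon bases, had 377, 270, 191 and 132 exon reads. Scaled, these were 47.8, 46.7, 46.7 and 28.9 CPM, so 3 libraries were nearly level and Csnk2b-deficient lymph node stood below them. The spleen pair had a ratio of 0.977 (0.832 to 1.15), and in the lymph node the Csnk2b-deficient library was 1.61-fold lower (1.29 to 2.03). The genotype coefficient was -0.35 ± 0.34 with an adjusted p of 0.895 (edgeR). On junction reads alone it was 0.45 ± 0.82, the opposite sign, from 29, 29, 3 and 5 uniquely placed junction reads.

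Slc1a5, the sodium-dependent exchanger that brings in glutamine, lies on chromosome 7 at 17366695 to 17383623 with 4156 exon bases. It had 2672, 1768, 735 and 930 exon reads, or 339, 306, 180 and 204 CPM, with both spleen libraries above both lymph node libraries. The genotype ratio was 0.902 in the spleen (0.849 to 0.959) and 1.14 in the lymph node (1.03 to 1.25), on opposite sides of 1. The genotype coefficient was 0.02 ± 0.20, with an adjusted p of 0.994 (edgeR).

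Slc38a1 and Slc38a2, sodium-coupled transporters of glutamine and alanine, lie 44480 bases apart on chromosome 15, at 96401849 to 96473344 (8391 exon bases) and at 96517825 to 96530129 (4626 exon bases). Slc38a1 had 1190, 877, 585 and 755 exon reads, or 151, 152, 143 and 166 CPM, and varied least of the 8 genes. Its genotype ratio was 1.00 in the spleen (0.920 to 1.10) and 1.16 in the lymph node (1.04 to 1.29), with a coefficient of 0.11 ± 0.22 (adjusted p = 0.950, edgeR). Its neighbour did not follow it.

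Slc38a2, which cells are known to induce when amino acids run short, had 1396, 1125, 1145 and 825 exon reads, or 177, 195, 280 and 181 CPM. WT lymph node stood above the other 3 libraries, which lay close together. The genotype ratio was 1.10 in the spleen (1.01 to 1.19) and 0.646 in the lymph node (0.590 to 0.707), and the coefficient was -0.25 ± 0.24 (adjusted p = 0.895, edgeR).

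Slc43a1, on chromosome 2 at 84679007 to 84703751 with 5716 exon bases, had 68, 45, 50 and 35 exon reads. Its CPM were 8.62, 7.78, 12.2 and 7.67, highest in WT lymph node and close together in the other 3 libraries. The genotype ratio was 0.902 in the spleen (0.605 to 1.33) and 0.628 in the lymph node (0.396 to 0.987), with a coefficient of -0.41 ± 0.72 (adjusted p = 0.947, edgeR). At this depth a difference of the size seen in the spleen was not detectable.

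Over the 8 genes, edgeR called 0 between genotypes at an adjusted p below 0.05, where 16 of 11113 genes (0.144%) were called, and limma-voom and DESeq2 also called 0 of them. Slc7a6 was the 1 gene of the 8 with an unadjusted p below 0.05, a level that 542 of all genes reached. The median log2 coefficient was -0.23 for the 8 genes and 0.01 for all genes. In the spleen pair 1 of the 8 genes, Slc7a5, differed by over 2-fold in log2 CPM with a prior count of 2, against 4.18% of all genes. In the lymph node pair Slc7a5 and Slc7a6 did, 2 of the 8, against 26.3% of all genes. The lymph node pair was wider throughout: its log2 ratios ran from -1.01 at the 10th percentile of genes to 1.52 at the 90th, and those of the spleen pair from -0.41 to 0.40. The fit kept 1 residual degree of freedom, set by how far the genotype changes of the spleen and the lymph node lie apart, and no like libraries stood behind it.

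**Figure D3:**
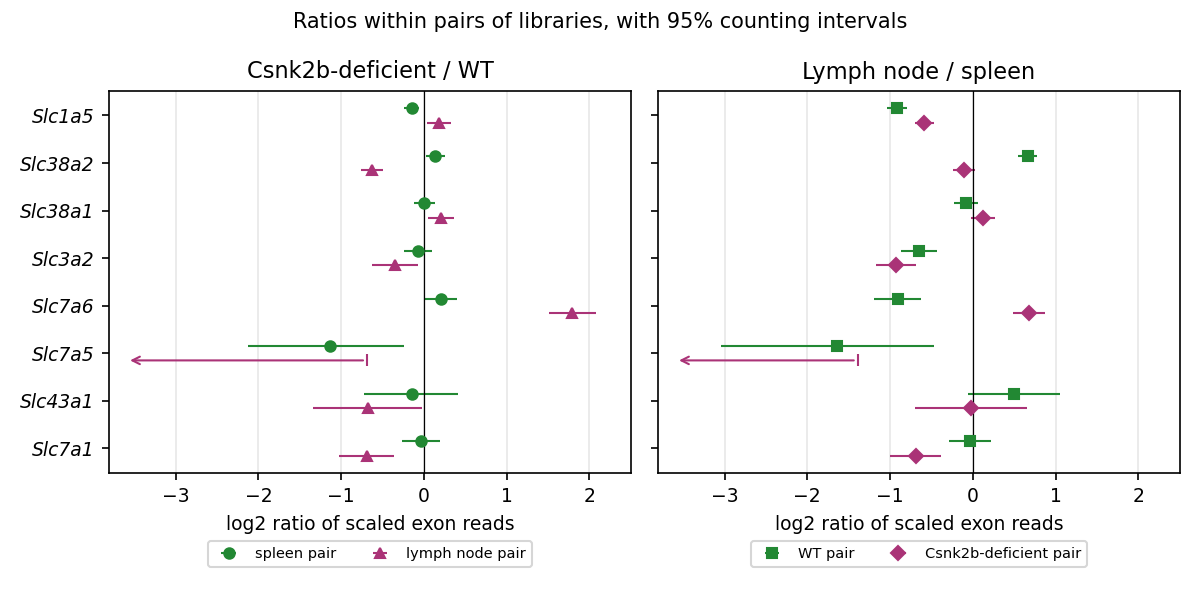
Log2 ratios of scaled exon reads within pairs of libraries, for genotype (left, circles for the spleen pair and triangles for the lymph node pair) and for tissue (right, squares for the WT pair and diamonds for the Csnk2b-deficient pair). Bars are 95% exact binomial intervals for counting error, and an arrow starts at the upper bound where the numerator library had 0 reads (Slc7a5). Slc7a6 lies farthest to the right in the lymph node pair at a ratio of 3.46, and Slc1a5 and Slc3a2 lie left of 0 in both tissue pairs.

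Between tissues, Slc1a5 and Slc3a2 fell past the threshold from spleen to lymph node. The libraries of the 2 tissues did not overlap for either gene, and how many of all genes share this was not counted. Tissue differences over 2-fold were common, at 55.8% of all genes tested in the WT pair and 53.7% in the Csnk2b-deficient pair. Slc1a5 was 1.89-fold lower in the lymph node in WT (1.74 to 2.05) and 1.50-fold lower in Csnk2b-deficient cells (1.39 to 1.63), with a tissue coefficient of -0.75 ± 0.20 and an adjusted p of 0.0112 (edgeR). Slc3a2 was 1.57-fold lower in WT (1.35 to 1.83) and 1.90-fold lower in Csnk2b-deficient cells (1.60 to 2.25), with a coefficient of -0.79 ± 0.27 and an adjusted p of 0.0365. The Slc3a2 call was lost with median-of-ratios scaling, where its adjusted p was 0.0502, and by DESeq2, where it was 0.0906. The summed level of 5 B cell markers moved with tissue too, at 16.1, 17.5, 148 and 104 CPM, and that of 5 CD8 T and NK cell markers at 21.2, 15.4, 54.0 and 46.0 CPM; their part in the tissue values was not tested. On junction reads neither gene passed, with adjusted p of 0.0594 for Slc1a5 and 0.0633 for Slc3a2 and coefficients of -0.69 and -0.87. These 2 genes were 2 of 8 called, both lower and 0 higher, where 45.4% of all genes were called and 22.2% were called lower, so the share was near the background. The median tissue coefficient was -0.17 over all genes and -0.22 over the 8. Upper-quartile scaling moved the median of all genes by -0.15, and relative to that median Slc1a5 stood at -0.58 and Slc3a2 at -0.62 under both scalings. A change of scaling shifts all genes nearly alike, so these distances are held by construction and say nothing about the calls. With no filter except 0 reads they were -0.39 and -0.43.

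The other 6 genes did not pass the tissue test. The tissue ratio of Slc7a6 went opposite ways, 1.87-fold lower in the lymph node in WT (1.54 to 2.29) and 1.60-fold higher in Csnk2b-deficient cells (1.40 to 1.83), around a coefficient of -0.09 ± 0.37 (adjusted p = 0.861, edgeR). Slc7a5 was 3.11-fold lower in WT (1.39 to 8.21) and, with 0 reads against 14, at least 3.68-fold lower in Csnk2b-deficient cells at the floor of 3 reads (2.62-fold by the exact binomial interval), with a coefficient of -2.76 ± 1.61 (adjusted p = 0.187). Slc38a2 was 1.58-fold higher in the lymph node in WT (1.46 to 1.71) and had a ratio of 0.930 in Csnk2b-deficient cells (0.849 to 1.02), with a coefficient of 0.28 ± 0.24 (adjusted p = 0.361). Among these 6 genes, Slc38a1, Slc43a1 and Slc7a1 had coefficients of 0.02, 0.24 and -0.36 with adjusted p of 0.938, 0.805 and 0.418, all by edgeR.

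The tissue value of Slc38a2 turned with the kind of read. Junction reads made up 14.9%, 10.8%, 2.62% and 2.91% of its uniquely placed exon reads, against a median gene of 17.7%, 18.0%, 13.3% and 13.8% in the same libraries. On junction reads alone its tissue coefficient was -1.71 ± 0.37 with an adjusted p of 0.00179 (edgeR), lower in the lymph node, while on all exon reads it was positive and did not pass. The lymph node share of junction reads was 0.176 of the spleen share in WT and 0.268 in Csnk2b-deficient cells, where the median gene kept 0.795 and 0.817. Slc7a1 had a like pattern, with shares of 7.69%, 10.7%, 1.58% and 3.79%, and its tissue coefficient on junction reads was -2.02 ± 0.86 (adjusted p = 0.0585, edgeR) against -0.36 on all exon reads. Slc1a5 did not, with 13.8%, 12.6%, 11.2% and 12.5%. Whether the kits took part in these shares was not tested, and the direction of the Slc38a2 tissue difference cannot be given from these tables.

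Levels were compared between genes as CPM per kilobase of exon, leaving out Slc7a5, which was counted on another basis. Slc1a5 stood at 81.5, 73.6, 43.2 and 49.1 and was the highest of the other 7 genes in 3 libraries. Slc38a2 stood at 38.3, 42.1, 60.5 and 39.1, next in those 3 and the highest in WT lymph node. That place did not hold on junction reads per annotated junction, scaled for depth, where Slc38a2 stood at 1.76, 1.41, 0.489 and 0.351 and Slc1a5, the highest in all 4 libraries, at 5.83, 4.80, 2.50 and 3.18. There Slc38a2 came 3rd of the 8 genes in both spleen libraries, 4th in WT lymph node and 5th in Csnk2b-deficient lymph node. The junctions, 8 for Slc1a5 and 15 for Slc38a2, were those of the longest protein-coding GENCODE transcript on GRCm38. The mm9 features on which the reads were counted list 31 and 16 exons, and ranks with another count of junctions were not computed. Slc3a2 (29.3, 27.8, 18.7 and 14.7), Slc38a1 (18.0, 18.1, 17.0 and 19.7) and Slc7a6 (16.1, 18.5, 8.58 and 29.7) filled the middle ranks. Slc7a1 stood at 6.35, 6.21, 6.20 and 3.85, and Slc43a1 at 1.51, 1.36, 2.14 and 1.34. Neighbours in this order differed by more than counting error except Slc7a6 and Slc38a1 in Csnk2b-deficient spleen (ratio 1.02, 0.907 to 1.15) and Slc3a2 and Slc38a1 in WT lymph node (1.10, 0.936 to 1.28).

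**Figure D4:**
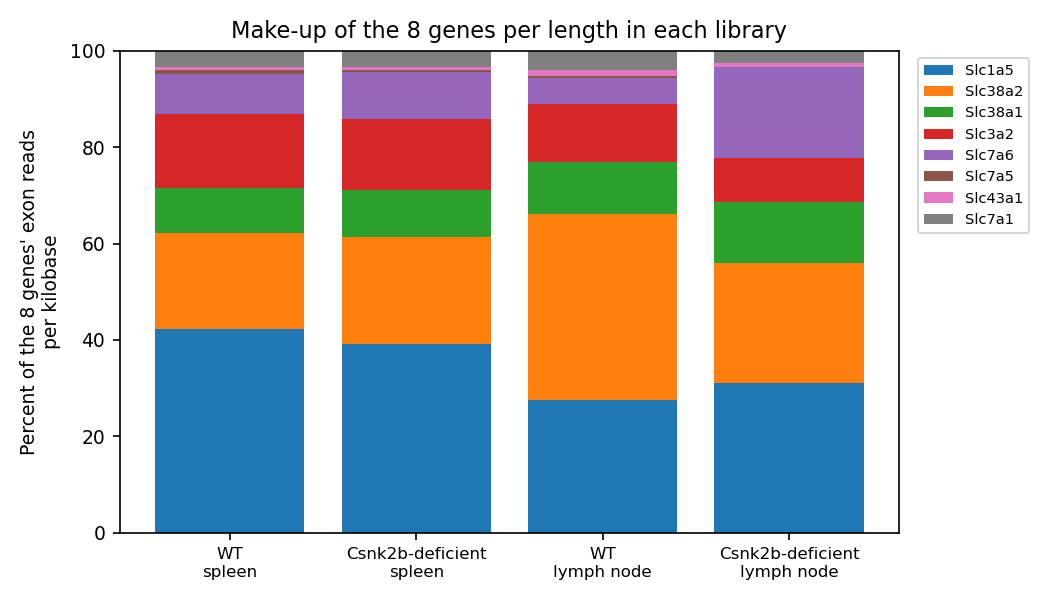
Share of each gene in the summed exon reads per kilobase of the 8 genes, in percent, with 1 stacked bar per library. Slc1a5 makes up 42.4% and 39.1% in the spleen libraries and 27.6% and 31.2% in the lymph node libraries, and Slc7a6 ranges from 5.47% in WT lymph node to 18.9% in Csnk2b-deficient lymph node.

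The make-up of the set differed between the lymph node libraries more than between the spleen libraries. In WT lymph node Slc38a2 made up 38.6% and Slc7a6 5.47% of the reads per kilobase of the 8 genes, and in Csnk2b-deficient lymph node 24.8% and 18.9%. In the spleen libraries Slc38a2 made up 19.9% and 22.3%, and Slc7a6 8.35% and 9.83%. These shares include Slc7a5 at the level that its exon reads, most of them junction reads, gave. On junction reads per junction Slc38a2 stood below Slc1a5, Slc3a2 and Slc38a1 in WT lymph node.

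Most relatives in these and other solute carrier families of amino acids had few reads. Of 36 listed, 12 had 0 reads in all 4 libraries and 10 passed the filter. Between genotypes 0 of the 10 were called by edgeR, DESeq2 or limma-voom, and 0 had an unadjusted p below 0.05 by edgeR. In the lymph node 3 were called lower and 0 higher, where 22.2% and 23.3% of all genes were, and the median tissue coefficient was -1.02. Slc38a10 had 897, 687, 54 and 93 reads (tissue coefficient -2.81 ± 0.31, adjusted p = 3.28e-05, edgeR). Slc43a2 (LAT4), which carries the same kind of amino acid as Slc43a1, had 766, 546, 162 and 154 reads (-1.39 ± 0.28, adjusted p = 0.00185). Slc7a10, a light chain that also pairs with Slc3a2, was the third, with 140, 168, 0 and 24 reads. The other light chains of Slc3a2 were sparse: Slc7a7 had 16, 12, 0 and 16 reads, Slc7a8 had 0, 0, 1 and 2, and Slc7a11 had 0, 1, 0 and 2.

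The list of lysosomal amino acid transporters held 10 tested genes, 1 of them Slc29a3, a nucleoside transporter. Of the 10, 0 were called between genotypes by the same 3 tools (2 at an unadjusted p below 0.05 by edgeR). Between tissues 1, Slc36a1, was called lower in the lymph node, against 22.2% of all genes (442, 308, 13 and 70 reads, -2.82 ± 0.55, adjusted p = 0.00164, edgeR). Slc36a4, a relative of Slc36a1, had 279, 238, 19 and 152 reads, high and low in the same lymph node libraries as Slc7a6. Its genotype coefficient was 1.38 ± 0.58, with an adjusted p of 0.890 (edgeR). Slc15a3, which carries histidine and peptides out of lysosomes, had 44, 95, 6 and 39 reads, with the Csnk2b-deficient library the higher in both tissues (1.99 ± 0.82, adjusted p = 0.890). Slc15a3 is also known for its expression in myeloid cells, and the part of the myeloid markers in these values was not tested.

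Among 30 genes tested that sense amino acids upstream of mTORC1, 1 was called between genotypes, against 0.144% of all genes. Sesn1, which binds the GATOR2 complex and restrains mTORC1, fell in Csnk2b-deficient cells, with 2058, 523, 1018 and 299 reads, or 261, 90.5, 249 and 65.5 CPM. Both Csnk2b-deficient libraries lay below both WT libraries, and the coefficient was -1.72 ± 0.23 with an adjusted p of 0.0124 (edgeR). DESeq2 and limma-voom called it too, and the call was lost with median-of-ratios scaling (adjusted p = 0.0948), unique reads (0.0613) and junction reads (0.218), with coefficients of -1.72, -1.72 and -1.73. It was also lost with no replicate block, where the Sesn1 coefficient was -1.71 ± 0.67. With a single library left out as well, and tissue thus mixed in, that coefficient ranged from -1.97 to -1.46. Gatsl2, a relative of the arginine sensor Castor1, had 239, 106, 176 and 82 reads and also stood lower in both pairs, with a coefficient of -0.99 ± 0.39 that did not pass (adjusted p = 0.890). Between tissues 7 of the 30 were called higher and 6 lower in the lymph node, near the shares of all genes (23.3% and 22.2%).

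The list of targets of ATF4, the transcription factor of amino acid shortage, held 18 tested genes, of which 0 were called between genotypes by edgeR, DESeq2 or limma-voom (1 at an unadjusted p below 0.05 by edgeR), and 7 were called higher and 3 lower in the lymph node, against 23.3% and 22.2% of all genes. Asns, asparagine synthetase, had 5, 16, 37 and 74 reads, and its tissue coefficient was 3.11 ± 0.94 (adjusted p = 0.0183, edgeR). Mthfd2, of mitochondrial folate metabolism, had 382, 346, 709 and 1014 reads and a tissue coefficient of 1.87 ± 0.23 (adjusted p = 7.53e-05). Ddit4, an inhibitor of mTORC1, went the other way, with 1461, 715, 35 and 22 reads and a coefficient of -4.55 ± 0.31 (adjusted p = 3.14e-06). All 20 cytosolic aminoacyl-tRNA synthetases, which load amino acids onto tRNAs, were tested: 0 were called between genotypes by any of these tools, 0 had an unadjusted p below 0.05 by edgeR, and 12 were called higher and 2 lower in the lymph node (23.3% and 22.2% of all genes), with a median tissue coefficient of 0.81 against -0.17 over all genes.

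In the remaining lists 0 genes were called between genotypes by edgeR, DESeq2 or limma-voom, with 2 of the MYC list, 1 of amino acid breakdown and 1 of ubiquitin control at an unadjusted p below 0.05 by edgeR. MYC and its partners, of which MYC is known to induce Slc7a5 and Slc1a5 in T cells, held 10 tested genes, with 1 called higher and 4 lower in the lymph node, where 23.3% and 22.2% of all genes were. Max, the partner of MYC, had 108, 93.2, 126 and 57.0 CPM, and Mxd1, a repressor that also binds Max, had 71.2, 50.3, 93.9 and 51.5 CPM. Both stood lower in the Csnk2b-deficient library of each tissue, with coefficients of -0.67 ± 0.28 and -0.68 ± 0.28 and adjusted p of 0.890 (edgeR). Of 12 genes of amino acid breakdown, 4 were called higher and 2 lower in the lymph node. Of 9 genes of ubiquitin control of transporters, 1 was called in each direction. The same shares of all genes, 23.3% higher and 22.2% lower, stand behind both counts. Nedd4l, a ubiquitin ligase of membrane transporters, had 89, 47, 47 and 12 reads, with a genotype coefficient of -1.25 ± 0.82 and an adjusted p of 0.890.

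The pattern over the 4 libraries was compared with that of all genes tested by the root mean square difference of log2 CPM, each gene centred on its own mean. The nearest gene to Slc7a6 was Soat1, at 0.0520, and 56 genes lay within 0.2 of it. The patterns of Slc7a1, Slc3a2, Slc1a5 and Slc38a1 were common ones, with 678, 777, 654 and 673 genes within 0.2, and the nearest were Anapc2, Paxip1, Pprc1 and Ipo9. For Slc38a2 and Slc43a1 there were 425 and 466 such genes, with Egr2 and Tram2 nearest, and for Slc7a5 there were 4, with BC051226 nearest at 0.110. Among the 8 genes themselves the closest patterns were those of Slc38a2 and Slc43a1 (0.101), both highest in WT lymph node on all exon reads, and of Slc3a2 and Slc1a5 (0.189), both lower in the lymph node. Neither closeness was rare: 59 genes lay nearer to Slc38a2 and 64 to Slc43a1, and 688 lay nearer to Slc3a2 and 579 to Slc1a5. On junction reads Slc38a2 was not highest in WT lymph node. The gene of the set nearest to Slc7a6 was Slc38a1, at 0.563, and 1307 other genes were nearer. With 4 libraries this likeness is a description of these samples.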

How the data were processed

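Tregs were profiled by RNA-seq on an Illumina MiSeq in 4 libraries, 1 per genotype and tissue. Per the submitters' processing notes, the software was CASAVA 1.8.2 and the build mm9; for the aligner, annotation and strand setting the sources used here give nothing. The tables as deposited hold read counts per gene (exon reads, gene reads and exon-exon reads, each as total and unique), per the file headers. Total exon reads were taken as counts. Of 37583 features, 28032 had an exon length, and 9551 had none and 0 exon reads and were left out. The deposited RPKM was not used.

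Genes were tested in R 4.3.3 with edgeR 4.0.16: filterByExpr by genotype, TMM factors, and the robust quasi-likelihood test on tissue plus genotype over 11113 genes, Benjamini-Hochberg adjusted, with calls at 0.05. The labels give the same tissue to libraries of the same number, so the tissue term is the replicate block; same-numbered libraries deviated from their genotype means together (correlation 0.783). The residual degree of freedom was 1, with a median prior of 10.1 and a biological coefficient of variation of 30.0%. Each SE is the coefficient divided by the root of its F statistic. Replicates are not said to be separate animals, and within a tissue no genotype is repeated. The libraries of a pair differed beyond sampling noise (chi-square 7.96 per degree of freedom for the spleen pair and 31.5 for the lymph node pair). Ratios within a pair carry 95% exact binomial intervals (counting error only), and log2 CPM used a prior count of 2. A group at 0 reads was set to 3 reads for a bound. The test was tried on simulated data.

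The members, lists and tests were chosen with earlier results of these data known. All 8 members were named; of each list, called genes and those with the largest change shared by both pairs could be named, with Slc7a7, Slc7a8 and Slc7a11 added as light chains of Slc3a2 and Slc7a6os and Gm20388 as neighbours after their values were seen. Alternatives were median-of-ratios and upper-quartile scaling, no filter, a filter at 5 CPM, DESeq2 1.42.0, limma-voom (limma 3.58.1), unique reads, total gene reads, junction reads (chosen after seeing the data), prior counts of 0.5 and 5, no replicate block, and leaving out libraries. Junction sequences were read from GRCm38 with the GENCODE annotation. The number of junctions of each member came from its longest protein-coding transcript there. The tables' mm9 coordinates were not converted.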

Additional observations from a re-analysis of the deposited data

Results flagged for a closer look

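The effects of 3 genes went opposite ways in groups under the same contrast, with counting intervals that leave out 1 on both sides. The tissue difference of Slc7a6 was larger by 1.58 on the log2 scale in Csnk2b-deficient than in WT cells, 0.68 against -0.90. The genotype change of Slc1a5 was 0.33 higher in the lymph node than in the spleen, 0.18 against -0.15, and that of Slc38a2 was -0.76, with -0.63 in the lymph node and 0.14 in the spleen. None of these differences was tested, since 1 library per genotype and tissue leaves no residual degree of freedom for an interaction. In the same lymph node pair 26.3% of all genes tested differed by over 2-fold between the genotypes. That is another rule, and the share of all genes that meet the rule of opposite effects was not counted. Whether 3 genes are more than that share cannot be said.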

How the results depend on the processing

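No member was called between genotypes under any of the alternative fits, and the adjusted p of Slc7a6 ranged from 0.154 to 1.00 over 14 of them. Of 189 log2 changes recomputed with an adjusted p, 168 kept their direction and side of the threshold, and of 33 values with none, 6 changed sign. The count of all genes called between genotypes, 16 by edgeR, was 4 with median-of-ratios scaling (4 higher and 0 lower, against 14 and 2), 111 with no filter, 54 with DESeq2, 60 with limma-voom, 7 with unique reads, 7 with junction reads, and 0 with no replicate block (29 at an unadjusted p below 0.05). Single libraries could be left out of the genotype fit only with the replicate block dropped as well, and the count then ranged from 0 to 1. Members called between tissues, 2 by edgeR, numbered 1 with median-of-ratios scaling, 1 with DESeq2 and 1 with junction reads, which called Slc38a2.

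Genotype coefficients changed sign for Slc7a1 with junction reads (0.45) and for Slc1a5 with limma-voom (-0.0082), junction reads (-0.026) and no replicate block (-0.025). With the replicate block dropped and a single library left out, or in 1 tissue alone, the coefficient ranged from -0.72 to 0.019 for Slc7a1, from -0.72 to 0.25 for Slc3a2 (above 0 also at 0.21), from -0.39 to 0.53 for Slc1a5 (with -0.36 between, and -0.15 in the spleen pair against 0.18 in the lymph node pair), from -0.63 to 0.14 for Slc38a2 (above 0 also at 0.11), from 0.20 to 1.78 for Slc7a6 and from -7.30 to -0.43 for Slc7a5. Tissue coefficients changed sign for Slc7a6 with limma-voom (0.047), junction reads (0.0037), no genotype term (0.15) and without the WT libraries (0.68), for Slc7a1 with total gene reads (0.16), for Slc38a1 with upper-quartile scaling (-0.13), no filter (-0.037) and without the Csnk2b-deficient libraries (-0.078), for Slc38a2 with junction reads (-1.71) and without the WT libraries (-0.11), and for Slc43a1 without the WT libraries (-0.020). Leaving out a single library left 1 genotype with 1 tissue only, so tissue was mixed into those genotype coefficients. The cause of the sign changes was not tested. The filter at 5 CPM left Slc7a5 out, and DESeq2 gave it no adjusted p between genotypes. Slc7a5 rested on 63 exon reads in all.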
